A study of Mus musculus with 10 samples.

Results

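The genes described here were 9 genes of the oligodendrocyte lineage, Olig1, Olig2, Sox10, Pdgfra, Cnp, Mag, Mog, Mbp and Mobp, out of 19938 genes measured in the hippocampus. They were chosen by symbol, and a probe set counted for a gene only where it was annotated to that symbol alone. Each of the 9 genes had 1 such probe set, and each lay above the background level set by olfactory receptor genes, which the brain is not expected to express. The Dp1Yey group was 5 male mice of 16 weeks that carried the Dp1Yey duplication, from Lipi to Zbtb21 on mouse chromosome 16 (Mmu16), the region homologous to human chromosome 21. The control group was 5 male littermates of the same age without it. RNA came from both hippocampi of each mouse, with 1 Affymetrix Mouse Gene 1.0 ST array per mouse. Sample labels give the background of both groups as C57BL/6N, the study's text names another C57BL/6 substrain, and this was not settled here. The duplication is carried in the germ line and is not limited to one cell type, and whole tissue mixes neurons, glia and vessels.

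Oligodendrocytes wrap axons in myelin and arise from dividing precursors that keep a presence in the adult brain. Olig1 and Olig2 are basic helix-loop-helix transcription factors that bind E-box DNA; Olig2 sets up the lineage in the embryo, and Olig1 takes part in the maturation of its cells and in remyelination. Sox10 is an HMG-box factor held through the whole lineage, Pdgfra is the receptor by which precursors answer platelet-derived growth factor, and the other genes encode proteins of the myelin membrane. Human OLIG1 and OLIG2 lie on chromosome 21, which is why the lineage is of interest in Down syndrome models.

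Of the 9 genes, Olig1 and Olig2 lie in the duplication and are present in 3 copies in Dp1Yey and 2 in control mice. In GRCm38.p6 (mm10), Olig2 lies at chr16:91225550-91228677 and Olig1 at chr16:91269769-91271939. The other 7 genes lie elsewhere, in 2 copies in both groups. Sox10 is at chr15:79154913-79164490, Pdgfra at chr5:75151322-75198206, Cnp at chr11:100574909-100591875 and Mag at chr7:30899175-30914922. Mog is at chr17:37010740-37023398 and Mobp at chr9:120149742-120181488, and the position of Mbp is given with its values.

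The promoters of 3 genes are shown to set one that is in triplicate beside 2 that are not and whose levels varied together over mice. Each line is the 250 bases before the start site in RefSeq for GRCm38.p6, in the direction of transcription, with every ACAAAG, the core letters bound by SOX factors, in capitals on either strand (as CTTTGT on the other), and with every E-box, CANNTG, also in capitals.
Olig2 (chr16:91225300-91225549, plus strand): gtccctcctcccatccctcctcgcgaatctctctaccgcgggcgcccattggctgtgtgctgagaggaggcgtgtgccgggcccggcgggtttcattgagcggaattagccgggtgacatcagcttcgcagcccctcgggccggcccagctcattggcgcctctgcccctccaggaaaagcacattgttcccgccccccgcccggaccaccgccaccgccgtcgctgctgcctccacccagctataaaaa
Mog (chr17:37023399-37023648, minus strand): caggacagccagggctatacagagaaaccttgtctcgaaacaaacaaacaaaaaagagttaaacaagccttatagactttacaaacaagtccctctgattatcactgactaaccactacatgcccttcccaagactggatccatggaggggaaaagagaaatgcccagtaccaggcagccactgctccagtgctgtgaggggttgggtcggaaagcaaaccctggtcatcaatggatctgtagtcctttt
Mobp (chr9:120149492-120149741, plus strand): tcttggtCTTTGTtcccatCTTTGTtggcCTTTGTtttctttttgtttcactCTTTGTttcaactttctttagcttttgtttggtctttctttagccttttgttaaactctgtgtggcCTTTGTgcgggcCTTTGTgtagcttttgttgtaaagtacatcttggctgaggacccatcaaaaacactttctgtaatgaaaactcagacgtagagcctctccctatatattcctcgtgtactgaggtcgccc
Mobp held 6 ACAAAG matches, all as CTTTGT on the strand shown, beginning 243, 231, 221, 198, 132 and 120 bases before the start, and it held no E-box. Of the 32851 promoter windows in the table, 16.5% held at least 1 ACAAAG, and 1 window, that of Mobp, held 6 or more. The Olig2 and Mog windows held neither ACAAAG nor an E-box, although 66.2% of all windows held an E-box. CAGCTG, one form of the E-box, was in 13% of all windows and in none of these 3. Of the windows not shown, that of Pdgfra held 1 E-box, that of Cnp 1 E-box and 1 ACAAAG, and those of the 3 Mag start sites 1, 0 and 2 E-boxes and 1, 1 and 0 ACAAAG. These matches describe letters in the windows and not factor binding, which was not measured.

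The means of Olig1 and Olig2 were higher in Dp1Yey than in control mice, and neither gene passed the test over all genes. Olig1 had log2 values of 9.73, 9.99, 9.79, 9.67 and 9.79 in Dp1Yey replicates 1 to 5, against 9.78, 9.45, 9.63, 9.38 and 9.56 in control replicates 1 to 5. The groups overlapped through control replicate 1, the highest control, above which 3 of the 5 Dp1Yey mice lay. Means were 9.79 ± 0.12 for the Dp1Yey mice and 9.56 ± 0.15 for the controls (SD, n = 5 per genotype). This was a log2 difference of 0.23 with a 95% interval of 0.07 to 0.40, or 1.18-fold (1.05 to 1.32). With limma the adjusted p of Olig1 was 0.144 over all genes, the unadjusted p was 0.00923, and an exact two-sided permutation of the mice gave p = 0.0317. In bulk tissue, more cells of a type and more RNA per cell cannot be told apart.

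Olig2 had log2 values of 8.54, 8.95, 8.69, 8.65 and 8.47 in the Dp1Yey mice, against 8.77, 8.39, 8.44, 8.26 and 8.47 in the control mice. Dp1Yey replicate 2 was the only mouse of its group above control replicate 1, though all 5 Dp1Yey mice lay above the control mean. Means were 8.66 ± 0.19 for the Dp1Yey mice and 8.47 ± 0.19 for the controls (SD, n = 5 per genotype), a log2 difference of 0.19 with a 95% interval of -0.02 to 0.41. Its fold was 1.14 (0.986 to 1.33), with a limma adjusted p of 0.296 and an exact permutation p of 0.151. Without Dp1Yey replicate 2 the difference of Olig2 was 0.12.

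**Figure D1:**
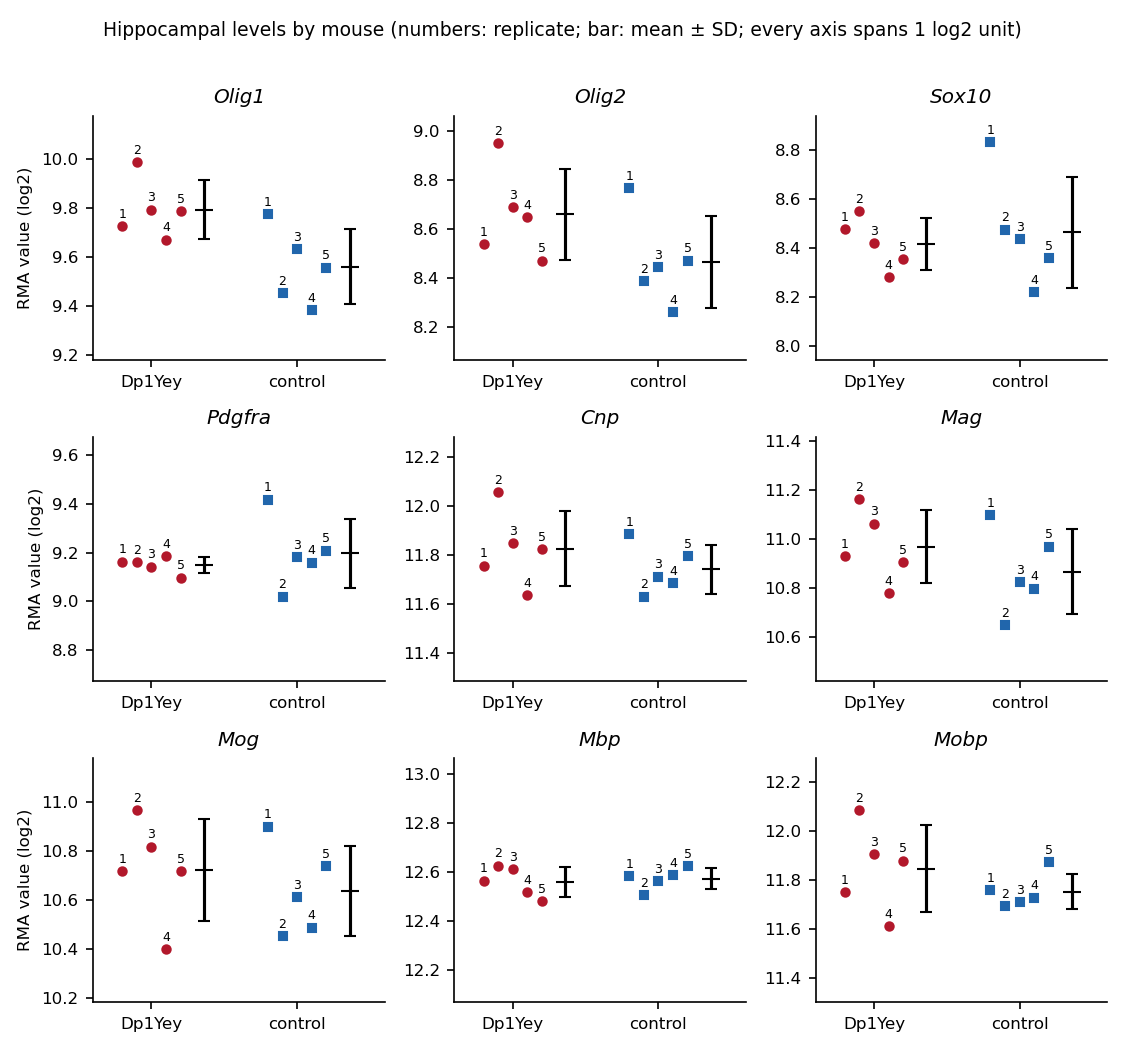
Log2 RMA value of each of the 9 genes (vertical axes) in 5 Dp1Yey mice (circles) and 5 control mice (squares), with replicate numbers and the group mean ± SD. Dp1Yey replicate 2 is the highest Dp1Yey mouse and control replicate 1 the highest control mouse for Olig1, Olig2, Sox10, Cnp, Mag and Mog.

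The dose of the triplicated genes was then set against the 1.5-fold that 3 copies over 2 would give. Olig1 and Olig2 both lay below 1.5-fold, with adjusted p = 0.000789 and 0.00262 in the moderated limma test against log2 of 1.5, adjusted over the 143 interval genes measured. Such values were common in the duplication. Of its 96 genes above background, 67 lay below 1.5-fold by the same test, and the median was a log2 difference of 0.321, or 1.249-fold. By fold, Olig1 was 63rd and Olig2 69th of these 96. Their standard errors, 0.0754 and 0.0988, were the 16th and 6th highest of the 96, against a median of 0.0506.

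The neighbours of the Olig genes differed in how far they rose. On the Olig1 side, Ifnar2, one chain of the receptor for type I interferons, had a log2 difference of 0.87 (adjusted p = 0.0006). Ifnar1, the other chain of the type I interferon receptor, had 0.58 (adjusted p = 0.0001). Il10rb, a subunit of the interleukin-10 receptor, had 0.63 (adjusted p = 0.001). On the Olig2 side, Paxbp1 had 0.27 (adjusted p = 0.0109). These 4 genes rose by limma. Between Paxbp1 and Olig2, 4932438H23Rik and Gm9881 were below background. Olig1 and Olig2 sat beside called genes without being called. Of the 143 interval genes, 41.3% were called higher.

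The other 7 genes, in 2 copies in both groups, gave log2 differences between -0.05 and 0.10. None of the 9 genes passed an adjusted p of 0.05 by limma, where 0.797% of all genes did. Olig1 alone had an unadjusted p under 0.05, as 19.5% of all genes did. By a rewritten version of the fold change rank statistic that the study used, Olig1 was called higher, as were 2.46% of all genes, while Olig2 and the other 7 genes were not called.

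Sox10 had log2 values of 8.48, 8.55, 8.42, 8.28 and 8.35 in the Dp1Yey mice, against 8.83, 8.47, 8.44, 8.22 and 8.36 in the control mice. The control mice covered the whole Dp1Yey range, with control replicate 1 far above the others. The difference was -0.05 (95% interval -0.25 to 0.16, limma adjusted p = 0.793), and without control replicate 1 it turned to 0.04. Pdgfra had 9.16, 9.16, 9.14, 9.18 and 9.10 in the Dp1Yey mice, against 9.42, 9.02, 9.18, 9.16 and 9.21 in the control mice. Dp1Yey mice thus stood close together inside a wider control range. The difference in Pdgfra was -0.05 (-0.18 to 0.08, limma adjusted p = 0.67), and without control replicate 1 it turned to 0.01.

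Among the myelin genes, Cnp encodes an enzyme of non-compact myelin that hydrolyses cyclic nucleotides. Cnp had log2 values of 11.76, 12.06, 11.85, 11.64 and 11.82 in the Dp1Yey mice, against 11.88, 11.63, 11.71, 11.68 and 11.79 in the control mice. The groups overlapped, and the difference was 0.08 (-0.07 to 0.24, limma adjusted p = 0.511). Mag, an adhesion molecule on the inner face of the sheath next to the axon, had 10.93, 11.16, 11.06, 10.78 and 10.90 in the Dp1Yey mice, against 11.10, 10.65, 10.82, 10.80 and 10.97 in the control mice. Its groups overlapped as well, with a difference of 0.10 (-0.09 to 0.29, limma adjusted p = 0.52).

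Mog, a protein of the outermost myelin layer, had log2 values of 10.72, 10.97, 10.82, 10.40 and 10.72 in the Dp1Yey mice, against 10.90, 10.45, 10.61, 10.49 and 10.74 in the control mice. Dp1Yey mice held both the highest and the lowest Mog value, and the difference was 0.09 (-0.14 to 0.31, limma adjusted p = 0.65). Mobp, a small basic protein of compact myelin, had 11.75, 12.09, 11.91, 11.61 and 11.88 in the Dp1Yey mice, against 11.76, 11.69, 11.71, 11.73 and 11.87 in the control mice. For Mobp, 3 Dp1Yey mice lay above the highest control mouse and 1 below the lowest, with a difference of 0.09 (-0.07 to 0.26, limma adjusted p = 0.479).

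Mbp (chr18:82475091-82585637), the basic protein that holds the inner faces of compact myelin together, had the smallest standard error of the 9. It had log2 values of 12.56, 12.62, 12.61, 12.52 and 12.48 in the Dp1Yey mice, against 12.58, 12.50, 12.56, 12.58 and 12.62 in the control mice. The 2 ranges were nearly the same. The difference in Mbp was -0.01 with a 95% interval of -0.09 to 0.07 (limma adjusted p = 0.88), which in fold was 0.937 to 1.05. Its sign turned without Dp1Yey replicate 5 or without control replicate 5, and its deviations followed the interquartile range of the arrays more than those of the other 8 genes (r = 0.664 over the 10 mice, as a description).

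**Figure D2:**
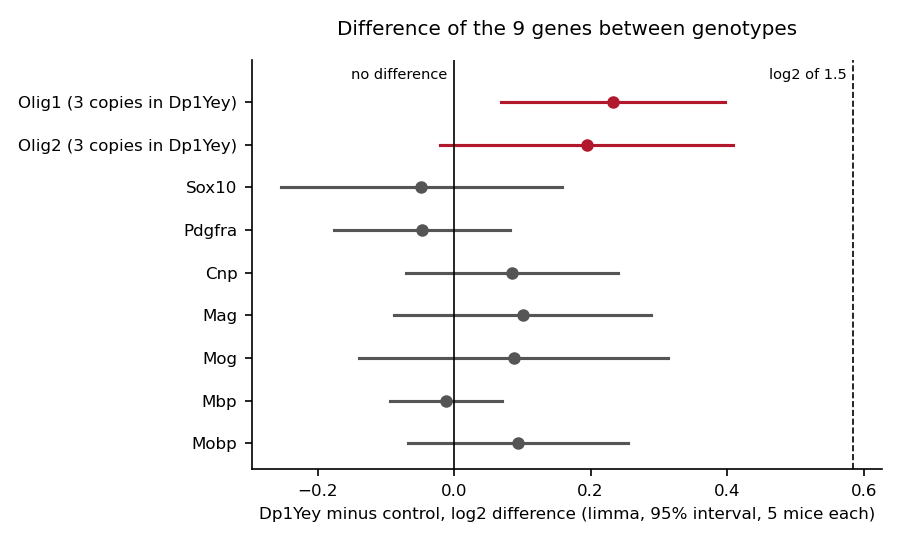
Log2 difference, Dp1Yey minus control, of each of the 9 genes (horizontal axis) with the 95% interval of limma, and lines at no difference and at log2 of 1.5. Olig1 at 0.23 is the one gene whose interval leaves out no difference, and the intervals of all 9 genes end below log2 of 1.5.

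Because lineage genes can vary together between samples of a tissue, the triplicated genes were also set against Sox10 in the same mouse. The level of such a ratio carries no meaning across probe sets, while its difference between mice does. Olig1 minus Sox10 was 1.25, 1.44, 1.37, 1.39 and 1.43 in the Dp1Yey mice, against 0.944, 0.978, 1.196, 1.164 and 1.199 in the control mice on the log2 scale. Every Dp1Yey mouse was above every control mouse. The difference was 0.28 (exact permutation p = 0.00794, the smallest that 5 mice against 5 allow, and 0.0238 adjusted over 3 contrasts), and it stayed between 0.24 and 0.31 when each mouse was left out in turn. How many contrasts of other genes with Sox10 separate the groups in this way was not counted. For single genes, 19.5% had an unadjusted limma p under 0.05.

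Olig2 minus Sox10 was 0.060, 0.401, 0.270, 0.368 and 0.116 in the Dp1Yey mice, against -0.068, -0.089, 0.007, 0.039 and 0.113 in the control mice. The groups overlapped, since Dp1Yey replicate 1 lay below control replicate 5. The difference in Olig2 minus Sox10 was 0.24 (exact permutation p = 0.0159, adjusted p = 0.0238). This call was lost without control replicate 1 or 2 (adjusted p = 0.0714 each) and without control replicate 3 or 4 (adjusted p = 0.0595 each). Olig1 minus Olig2 differed by 0.04 (exact permutation p = 0.563), with 1.02 to 1.32 in the Dp1Yey mice and 1.01 to 1.19 in the control mice.

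The outcome depended on the gene set against Olig1 and Olig2, as 12 further contrasts chosen after seeing the data showed. Against Pdgfra, Olig1 was higher by 0.28 and Olig2 by 0.24 in Dp1Yey, with no overlap between groups (exact permutation p = 0.00794 and adjusted p = 0.0317 for both). Against Cnp, Olig1 was higher by 0.15, again with no overlap (adjusted p = 0.0317), and Olig2 by 0.11 (exact permutation, adjusted p = 0.265). Against Mag, Mog, Mobp and Mbp the differences of Olig1 ran from 0.13 to 0.245 and those of Olig2 from 0.09 to 0.21, and none passed. Olig1 and Olig2 were thus higher relative to Sox10 and Pdgfra, and of the 5 myelin genes only Cnp gave a call, for Olig1. Whether the contrast with Sox10 differed from that with the myelin genes was not tested. How often contrasts of other genes leave no overlap was not counted.

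**Figure D3:**
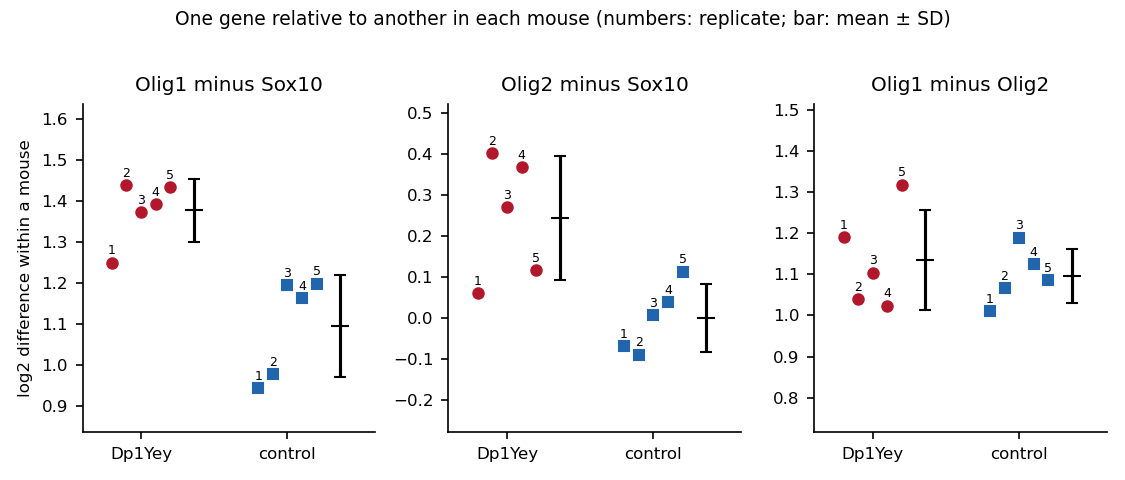
Log2 difference between 2 genes in each mouse (vertical axes) for 5 Dp1Yey mice (circles) and 5 control mice (squares), with replicate numbers and the group mean ± SD. Olig1 minus Sox10 separates the groups, Olig2 minus Sox10 overlaps through Dp1Yey replicate 1 and control replicate 5, and Olig1 minus Olig2 overlaps widely.

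The covariation of the 9 genes over mice was measured with the group means removed, so that copy number could not enter. Dp1Yey replicate 2 was above its group mean for all 9 genes, by 0.196 for Olig1, 0.292 for Olig2 and 0.244 for Mog. Control replicate 1 was above its group mean for all 9 genes too, by 0.216 for Olig1, 0.300 for Olig2, 0.369 for Sox10 and 0.262 for Mog. Dp1Yey replicate 4 was low, by -0.325 for Mog and -0.235 for Mobp, and control replicate 2 was low, by -0.218 for Mag and -0.177 for Pdgfra.

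All 36 pairs of the 9 genes had a positive r over the 10 mice, and 15 pairs passed an adjusted p of 0.05 in an exact permutation within groups. The closest were 3 myelin genes, Mag with Mog (r = 0.954, rho = 0.952, adjusted p = 0.00375 for r and 0.0075 for rho), Cnp with Mog (r = 0.947, rho = 0.952) and Cnp with Mag (r = 0.924, rho = 0.891). Mobp followed Cnp (r = 0.884, rho = 0.903) and was nearly unrelated to Pdgfra (r = 0.053, rho = -0.079). By rho, 6 pairs passed, of which 1, Olig1 with Cnp, held an Olig gene. How often pairs of other genes have a positive r or pass was not counted.

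Olig1 moved with Mog (r = 0.867, exact permutation adjusted p = 0.0275), Cnp (0.863, 0.0206), Olig2 (0.858, 0.0307), Mag (0.825, 0.0353) and Sox10 (0.812, 0.0353). With Pdgfra, Mobp and Mbp its r was 0.606, 0.604 and 0.423, and none of these passed. Olig2 passed with Sox10 (r = 0.778, exact permutation adjusted p = 0.0413) and Mag (0.759, 0.0462), and did not pass with Cnp (0.744, 0.0563) or Mog (0.701, 0.0813). The rho of Olig1 was 0.830 with Mog, 0.830 with Cnp, 0.770 with Olig2, 0.842 with Mag and 0.685 with Sox10. That of Olig2 was 0.552 with Sox10, 0.733 with Mag, 0.648 with Cnp and 0.661 with Mog. Sox10 and Mog also passed by r (0.711, adjusted p = 0.0425).

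The calls of Olig1 and Olig2 were lost without Dp1Yey replicate 2 and control replicate 1, the mice farthest from the median of both genes, a step that also narrows the range of each gene. Without them, the r of Olig2 was 0.192 with Mog, 0.093 with Cnp, 0.321 with Mag and 0.307 with Sox10. That of Olig1 was 0.698 with Mog, 0.638 with Cnp, 0.555 with Mag, 0.512 with Sox10 and 0.458 with Olig2. Without the 2 farthest mice of the first gene of each pair, 0 of 36 pairs passed by the exact permutation test. An unadjusted p under 0.05 was left for 8 pairs, against 20 with all mice. Fewer mice leave fewer arrangements, so no pair could pass by itself after adjustment over 36, even at the smallest possible p. The loss of adjusted calls therefore cannot tell whether a pair rests on these mice. In the same check the 10 pairs of myelin genes had an r of 0.448 to 0.962. Mag with Mog had 0.904, Cnp with Mog 0.962 and Cnp with Mag 0.950 (exact permutation, adjusted p = 0.0625, 0.05 and 0.0625), while Cnp with Mobp fell to 0.625 and Cnp with Mbp to 0.448.

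**Figure D4:**
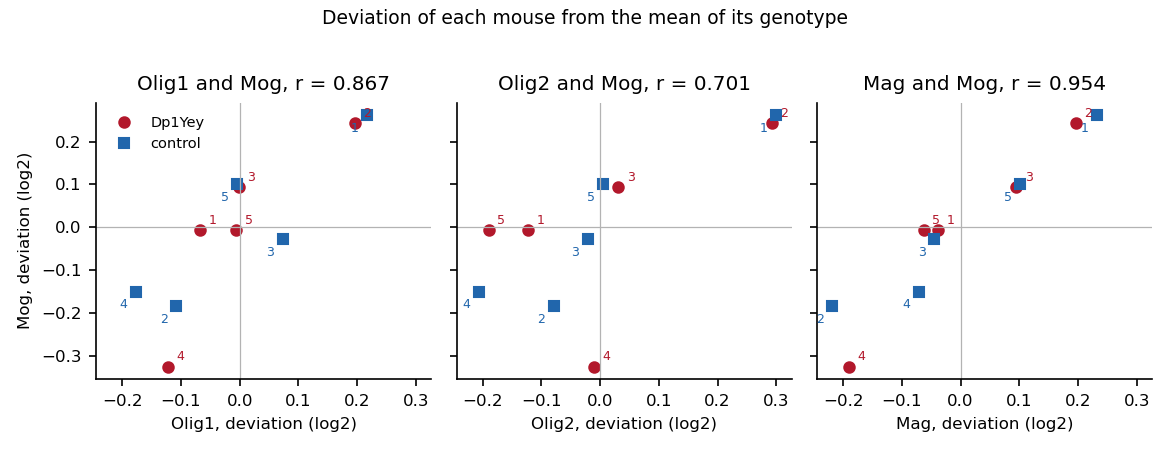
Deviation of Mog (vertical axis, log2) from the mean of its genotype against that of Olig1, Olig2 and Mag (horizontal axes, log2) in 5 Dp1Yey mice (circles) and 5 control mice (squares), with replicate numbers. Dp1Yey replicate 2 and control replicate 1 stand at the upper right in each panel, and without those mice the r with Mog is 0.904 for Mag, 0.698 for Olig1 and 0.192 for Olig2.

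The genes nearest to each of the 9 over the 10 mice were ranked by the same r among the 15162 genes above background, as a description. Of the 100 nearest genes, 20 for Cnp, 19 for Mog and 18 for Mag were on 6 lists of lineage genes (those described below other than signals and receptors), which hold 127 other genes above background. The number was 12 for Olig1, 8 for Mobp, 6 for Olig2, 5 for Mbp, 4 for Sox10 and 3 for Pdgfra. Among the 15161 genes compared, Mog was 3rd for Mag, 5th for Cnp, 70th for Mobp, 86th for Olig1 and 554th for Olig2. Mog was 725th for Mbp, 870th for Sox10 and 1918th for Pdgfra, and Olig2 was 102nd for Olig1. The 5 nearest to Mog were Cldn11, the tight junction protein of myelin (r = 0.970), Pllp, a proteolipid of myelin (0.966), Phldb1, Tmem63a and Cers2, a ceramide synthase (0.957). Cldn11 and Mog were also among the 5 nearest to Mag and to Cnp. Phldb1 (r = 0.973), Cmtm5 and Decr1 completed the 5 of Cnp, and Tmem201, Decr1 and Tmbim1 those of Mag.

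Olig1 was closest to Nup214, a nuclear pore protein (r = 0.989), then to Tsc2, a brake on mTOR signalling, Secisbp2l, Tm7sf3 and Josd2. Olig2 was closest to Zfhx4 (0.953), Gab1, Coro1c, Pold4 and Mast3. Neither shared any of its 5 with the other or with a myelin gene. Sox10 was closest to Osbpl7 (0.967), Xpo6, Mob3b, Mcam and Dbn1, and Pdgfra to Tril (0.982), Chrac1, BC024978, Rnf123 and 1110059E24Rik. Mbp was closest to Pum3 (0.950), Smco3, Cks2, Stard13 and Tmcc3. Mobp had Mal, another myelin proteolipid, among its 5 (0.914), beside I730030J21Rik, D6Ertd474e, Dbr1 and Ddx4.

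Beyond the 9 genes, 7 lists covered the lineage, from its factors to its lipids. Of 153 genes measured, 0 were called by limma over all genes, and 35 had an unadjusted p under 0.05 (18 higher in Dp1Yey and 17 lower). That was 22.9%, where all genes had 19.5% and genes above background 22.3%. By the rank statistic 11 of the 153 were called in either direction, a higher share than the 3.46% of all genes. The rank share among genes above background is not given here. The median log2 difference of the 153 genes was -0.009, against -0.015 over all genes and -0.008 over genes above background. Of the 24 lineage transcription factors measured, Olig1 and Olig2 had the highest differences, and the third, Id4, an inhibitor of basic helix-loop-helix factors, had 0.06. The list's median was -0.042, and 6 of 24 were higher in Dp1Yey. Over all genes 42.1% were higher, and 46.3% of those above background, a share to set beside the count of every list. Hes5, a Notch target that holds precursors undifferentiated, had -0.15 (limma adjusted p = 0.167), Nkx6-2 had -0.17 (0.189) and Nkx2-2 had -0.08 (0.296). Myrf, the factor that switches on myelin genes, had -0.01 (0.976). Olig3, at -0.07, was below background.

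Precursor markers had a median of -0.035, with 6 of 19 higher in Dp1Yey and 0 called by limma (1 higher and 4 lower unadjusted, 0 by the rank statistic). Ptprz1, a receptor phosphatase of precursors and astrocytes, had the smallest p, with a difference of -0.15 (limma adjusted p = 0.0939), followed by Epn2 (-0.13, 0.172), Tmem100 (0.12, 0.191) and Megf11 (-0.13, 0.218). Markers of newly formed oligodendrocytes had a median of 0.030, with 11 of 18 higher and 0 called by limma (2 higher unadjusted, 0 by the rank statistic). Among these were Arhgap5 (0.10, limma adjusted p = 0.213), Fyn, a kinase that acts at the start of myelination (0.07, 0.229), Sirt2 (-0.09, 0.284) and Lims2 (-0.06, 0.366).

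Compact and non-compact myelin proteins had the highest median of the 7 lists, 0.078, with 13 of 20 higher in Dp1Yey and 0 called by limma (2 higher unadjusted, 2 higher by the rank statistic). The smallest p values were those of Nfasc, an adhesion molecule of the node and its flanks (0.15, limma adjusted p = 0.184), Pllp (0.27, 0.233), Mal (0.16, 0.304) and Opalin (0.31, 0.35). Without the 5 myelin genes described above, the median was 0.042. Mature oligodendrocyte markers spread the most. Their median was 0.037, with 22 of 34 higher and 0 called by limma, while 5 were higher and 6 lower unadjusted, and 6 were higher and 1 lower by the rank statistic. Anln, a septin-binding protein of myelin, had -0.33 (limma adjusted p = 0.0678). Il33, an alarmin cytokine, had 0.29 (0.0936), Ptgds, a prostaglandin synthase also made by meninges, 0.42 (0.106), and Serpinb1a 0.40 (0.11).

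Genes of myelin lipid synthesis had a median of 0.047, with 10 of 17 higher and 0 called by limma (4 higher unadjusted, 0 by the rank statistic). The 4 were Fdft1 (0.13, limma adjusted p = 0.186), Idi1 (0.25, 0.191) and Hmgcs1 (0.10, 0.191), enzymes of cholesterol synthesis, and Scd2, a fatty acid desaturase (0.09, 0.222). Signals and receptors of the lineage had a median of -0.036, with 5 of 24 higher and 0 called by limma (3 higher and 5 lower unadjusted, 1 each way by the rank statistic). Igf1, a growth factor that promotes myelination, had means of 7.29 ± 0.078 for the Dp1Yey mice and 7.08 ± 0.063 for the controls (SD, n = 5 per genotype), and the difference was 0.21 (limma adjusted p = 0.0533). With each array centred on its median it was called (adjusted p = 0.0394), and with the arrays' interquartile range added to the model its adjusted p was 0.499. Adgrg1, an adhesion receptor of precursors, had -0.20 (limma adjusted p = 0.0801), Fgf2, a mitogen of precursors, 0.17 (0.0834) and Pdgfc, a ligand of Pdgfra, -0.20 (0.162).

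**Figure D5:**
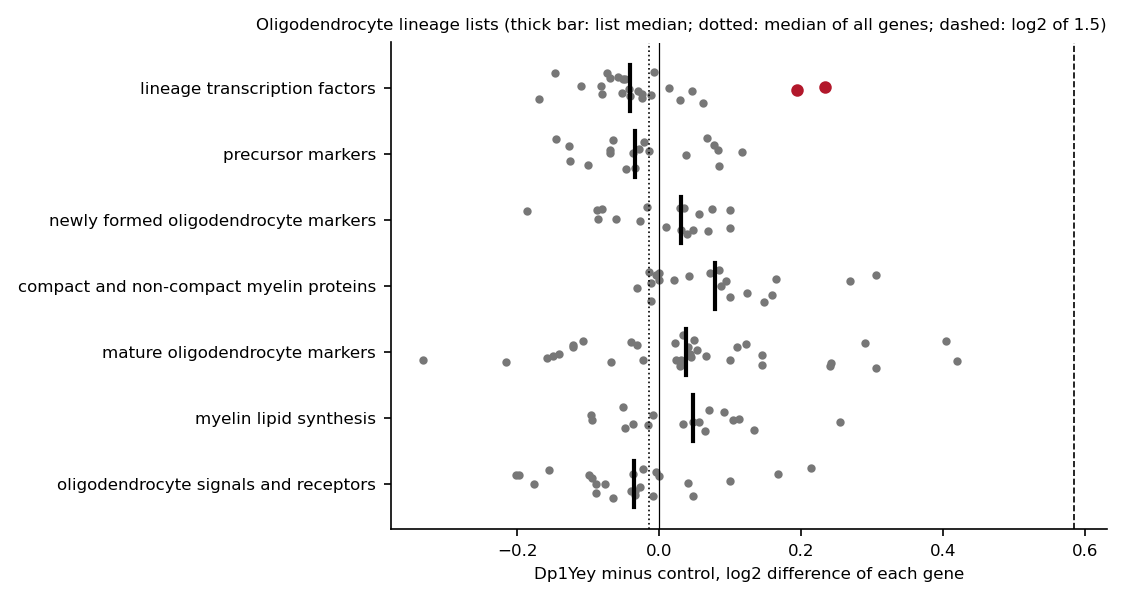
Log2 difference, Dp1Yey minus control, of each gene (horizontal axis) on 7 oligodendrocyte lineage lists (rows), with the median of each list as a thick bar, the median of all genes as a dotted line and log2 of 1.5 as a dashed line. Olig1 and Olig2, in red, are the highest of the lineage transcription factors, and list medians lie between -0.042 and 0.078.

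A set of 11 genes that the study names for a myelin sheath term was partly picked from these very mice, so its direction here is no independent evidence. Of its 10 genes measured here, 7 were higher in Dp1Yey, 0 were called by limma (4 higher unadjusted, 3 higher by the rank statistic), and the median was 0.144. The smallest p values were those of Prdx1 (0.22, limma adjusted p = 0.135) and Prdx3 (0.25, 0.136), peroxide-removing enzymes of many cell types, Anxa2 (0.24, 0.144) and Pllp (0.27, 0.233). None of the 9 genes described here is on that list. The study reports its myelin sheath term as upregulated in Dp1Yey by a gene set method. No gene set method was run here, so the counts by gene are no test of that report.

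Markers of other cell types were counted in the same way, and their part in the results above was not tested. Of 12 choroid plexus and ependymal markers, 9 were lower in Dp1Yey and 0 were called by limma (6 lower unadjusted, 4 lower by the rank statistic). Their median was -0.425. Their mean level was 6.97 to 7.53 in Dp1Yey and 7.06 to 8.45 in control mice. Aqp1 had -0.39 (limma adjusted p = 0.0759), Folr1 -0.62 (0.137), and Ttr, the defining transport protein, had means of 10.5 ± 1.199 for the Dp1Yey mice and 12.03 ± 1.503 for the controls (SD, n = 5 per genotype). Of 14 microglial markers, 13 were higher in Dp1Yey, with a median of 0.135. An unadjusted p under 0.05 was found for 8, all higher, where 19.5% of all genes had one in either direction. By the rank statistic 4 were higher. Laptm5 rose (0.21, limma adjusted p = 0.0455, and 0.335 with the arrays' interquartile range added to the model). Mean levels of the microglial markers were 8.68 to 8.75 in Dp1Yey and 8.47 to 8.67 in control mice.

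Astrocyte markers had a median of 0.046, with 9 of 14 higher and Ntsr2 called (0.23, limma adjusted p = 0.0334, and 0.2 in that model). Of the 14, 4 were higher and 1 lower unadjusted, and 2 were higher and 1 lower by the rank statistic. Endothelial and pericyte markers had a median of 0.048 and meningeal markers 0.049, with 0 called by limma in each (3 unadjusted in each). Medians were also close to 0 for thalamic and habenular markers (0.017, with Tac2 called at 0.36 and an adjusted p of 0.0197 by limma, or 0.278 in that model) and for the 16 neuronal markers (0.005, with 0 called and 1 unadjusted), with mean neuronal levels of 10.77 to 10.84 in Dp1Yey and 10.75 to 10.82 in control mice. All neuronal markers were above background, Prox1 of hippocampal granule cells and Neurod6 of pyramidal cells among them. Of 6 markers of Schwann cells, which make peripheral myelin, 4 were above background and 0 were called by limma (1 unadjusted), and Egr2, also an activity-dependent gene of neurons, had the smallest p (0.48, limma adjusted p = 0.0716).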

How the data were processed

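The authors deposited log2 values from robust multi-array average (RMA), which corrects background, quantile-normalises the probes and summarises each probe set. RMA, limma and mm10 are listed in the submitters' processing notes. Values ran from 3.54 to 14.1 and have no read depth, so the number of arrays limits the precision. Titles call the replicates biological. No 2 arrays were copies of each other, and array medians were 6.31 to 6.37 in Dp1Yey and 6.35 to 6.44 in control mice. Scanner files were not used here.

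Of 35556 probe sets, 21789 had 1 gene symbol in the platform annotation, 1621 several and 12146 were not listed there. The probe set of highest mean stood for a gene, giving 19938 genes. The background level was 5.45 on the log2 scale, below which 90% of 1015 olfactory receptor genes lay, and 15162 genes were above it. Positions came from RefSeq GRCm38.p6, which placed 19852 genes. Promoter windows came from the same build, those of Olig2, Mog and Mobp were printed, and those of Pdgfra, Cnp and Mag, some of which lie partly within the annotated gene, are given as counts. None was used for Mbp, Olig1 or Sox10.

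Groups were compared by lmFit and eBayes of limma (version 3.58.1, R 4.3.3) with group as the sole factor, two-sided, Benjamini-Hochberg adjusted over all genes, at a threshold of 0.05. Single values and correlations used exact permutations (252 assignments of mice, and 14400 arrangements within groups), adjusted over 3 or 12 contrasts and 36 pairs. The rank statistic ranked the 25 pairwise fold changes, trimmed 0.25 of the ranks at both ends and took genes beyond 0.025 and 0.975. On simulated data for 19938 genes, limma recovered 98 of 100 genes changed 1.5-fold and 59 of 100 changed 1.2-fold in Dp1Yey against control. It also called 8 unchanged genes. The simulated noise was independent between genes, and the changed genes were drawn from all those above background. These counts therefore do not give the recovery for Olig1 or Olig2.

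The 9 genes and 16 lists were chosen with earlier results of these data known. Of 266 listed genes, 252 were measured, and the others were not analysed here. Named list genes were those called by limma, up to 4 others of smallest p in each lineage list, and up to 2 and the defining marker in other lists; Nkx2-2, Myrf, Id4, Olig3, Prox1, Neurod6 and the neighbours of Olig1 and Olig2 were named after their values were seen. Alternatives were other normalisations, filters, priors, array weights, covariates, a replicate block and fewer arrays.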

Additional observations from a re-analysis of the deposited data

How the results depend on the processing

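Olig1 kept its direction under all 21 alternatives tried, with log2 differences of 0.18 to 0.29 and adjusted p of 0.0811 to 0.7, where the highest p came with each array's interquartile range as a covariate. The background filter, the probe set choices, the prior, the replicate block and the rank statistic leave its difference at 0.2332 by construction. Those settings could therefore not change its direction. The rank statistic called it at the same difference of 0.2332, which made 1 of the 9 genes called. Sox10 turned to 0.0007 with that covariate and to 0.0780 without control replicates 1 and 2 together. With each array left out in turn, Sox10 ran from -0.1093 to 0.0439, Pdgfra from -0.0909 to 0.0084, Mbp from -0.0287 to 0.0077, Olig2 from 0.121 to 0.269, Cnp from 0.0262 to 0.131, Mag from 0.0459 to 0.158, Mog from 0.0261 to 0.168 and Mobp from 0.0346 to 0.153. The lowest value came without Dp1Yey replicate 2 for Olig2, Cnp, Mog and Mobp and without control replicate 2 for Mag, and the highest without Dp1Yey replicate 4 for Cnp, Mog and Mobp and without control replicate 1 for Olig2 and Mag. Leaving out each array also took Olig2 minus Sox10 from 0.2027 to 0.288 and Olig1 minus Olig2 from -0.0065 to 0.067 (negative without Dp1Yey replicate 5). With another gene in place of Sox10, chosen after seeing the data, Olig1 was higher by 0.1327 (Mag), 0.1461 (Mog), 0.2450 (Mbp) and 0.1389 (Mobp) and Olig2 by 0.1098 (Cnp), 0.0935 (Mag), 0.1069 (Mog), 0.2058 (Mbp) and 0.0997 (Mobp), without passing; the cause was not tested. Both Olig genes stayed below 1.5-fold under the 17 alternatives in which that test was run, with adjusted p up to 0.00908.

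Of 36 pairs, 3 to 15 passed with each array left out in turn. The count was 3 without Dp1Yey replicate 2, 4 without control replicate 4 and 5 without Dp1Yey replicate 3. It was 7 without control replicate 1 and 8 without Dp1Yey replicate 1. Without the 2 farthest mice 0 passed, in a test with too few arrangements for any pair to pass by itself. The correlation of the deviations of same-numbered mice ran from -0.327 to 0.218, and not every mouse was closest to its own number. Whether same-numbered mice were handled together is not stated and was not tested. With the replicate block, Olig1 had an adjusted p of 0.202 at 0.2332, 0 of the 9 genes were called, and 90 genes were called higher and 4 lower over all genes, against 137 and 22 without it. Over all genes the count called higher plus lower also fell to 44 and 2 with the covariate, and to 65 and 5 without Dp1Yey replicate 3, and was 491 and 198 by the rank statistic. Differences as small as those of the myelin genes were not simulated.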
